A study of Canis lupus familiaris with 20 samples.

Results

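Gene expression in vertebral epiphyseal cartilage was compared between dogs with mucopolysaccharidosis VII (MPS VII) and control dogs at postnatal day 9. The comparison used the 10 day 9 libraries of 20 in all, 5 from MPS VII and 5 from control animals, chosen by their genotype and age labels, and covered 14550 tested genes. MPS VII dogs were homozygous, and controls heterozygous, for a missense change (R166H) in GUSB, so the controls also carried 1 copy of it. The mutation arose naturally and is inherited, so it is not limited to cartilage. Each library came from 1 animal, from tissue next to the growth plate of vertebra T12 with its cranial and caudal ends combined. Animals were litter-matched by design, but the labels give neither litter nor sex for a library, so a different mix of these between genotypes cannot be told apart from genotype. The 10 day 14 libraries of both genotypes shared the fit and are used below only to set the same genes side by side.

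GUSB encodes β-glucuronidase, a lysosomal enzyme that removes glucuronic acid from the ends of glycosaminoglycan chains. Without it, partly degraded chains collect in lysosomes, in cartilage cells as well as in macrophages. In the young vertebra the epiphysis is cartilage, built by chondrocytes from type II collagen and proteoglycan. Vessels later enter it, osteoclasts and related cells resorb calcified cartilage, and osteoblasts lay down bone in its place, which forms the secondary ossification centre.

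The deposited table names genes by Ensembl identifier and CanFam3.1 position, with no symbols, and 0 of its identifiers matched the RefSeq dog gene table used here (assembly UU_Cfam_GSD_1.0). Genes are therefore given by position. A name is attached to a few positions only, as the gene or gene family known there. For these, RefSeq places GPNMB, ACP5 and COL2A1 on the same chromosomes (14, 20 and 27), with spans of 27, 2.39 and 30.8 kb against 28.6, 3.35 and 30.9 kb for the genes in the deposited table. For the families, RefSeq places 3 of 3 C1q genes on chromosome 2, 3 of 3 TREM genes on 12, 4 of 4 CD300 genes on 9 and 6 of 6 GIMAP genes on 16. The other windows named below were not checked in this way. The level of GUSB itself was not examined, since the deposited table holds no symbols.

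Total counts per library were 21419930 to 28028365 at day 9 and did not differ between genotypes beyond the spread (exact two-sided permutation p = 0.190, adjusted p = 0.307 over 4 library measures, n = 5 each). The gene at chr27:6756994-6787846, the position of COL2A1, which encodes the type II collagen of cartilage, was the most abundant gene over the day 9 libraries. It took 25.7% to 35.1% of all counts in controls and 25.4% to 33.2% in 4 of the 5 MPS VII libraries. MPS VII replicate 3 stood apart, with 7.48% of counts on that gene. The same library held 23.5% of its counts in the 20 most abundant genes, against 43.0% to 52.9% in all others. It was the highest of the 10 libraries in 31.8% of tested genes and the lowest in 27.6%, where each other library was highest in 5.88% to 9.59% and lowest in 4.99% to 10.4%. On the first principal component of log2 CPM (CPM are read counts scaled to library size), with 40.16% of the variance, it lay at 107 and the other 9 libraries at -35.6 to 16.5. The median coefficient of variation of a gene was 14.3% among controls, 24% among MPS VII libraries and 15.2% among the latter without replicate 3. Results that rest on this library are therefore given with and without it.

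**Figure D1:**
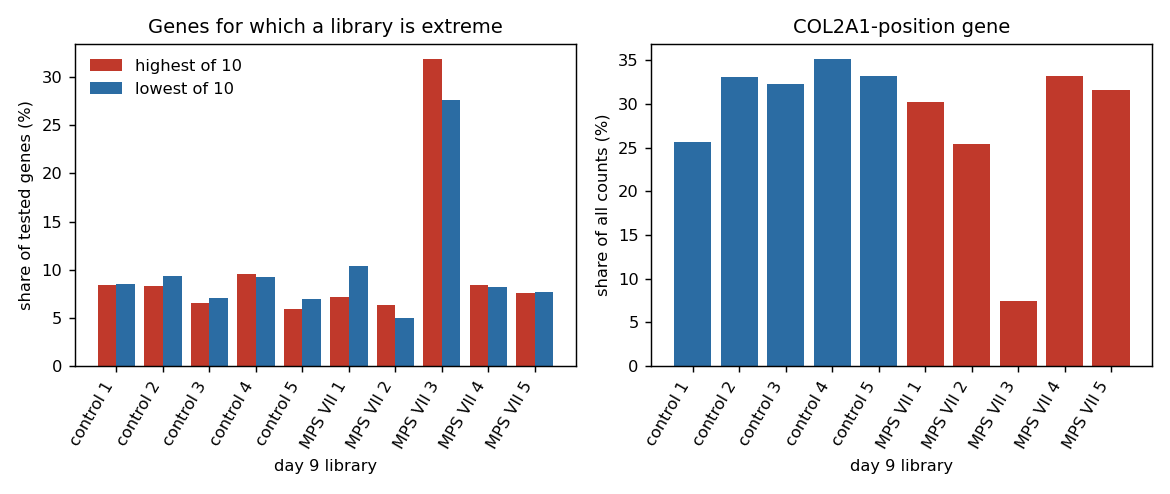
Bars show, for each of the 10 day 9 libraries, the share of tested genes in which that library was the highest or the lowest of the 10 (left, percent) and the share of all counts on the COL2A1-position gene (right, percent). MPS VII replicate 3 was highest in 31.8% and lowest in 27.6% of genes and held 7.48% of its counts on the COL2A1-position gene.

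At day 9, 1220 of 14550 tested genes (8.38%) differed between genotypes, tested with edgeR's quasi-likelihood method at a Benjamini-Hochberg adjusted p of 0.05; such genes are termed called. Of these, 899 (6.18% of tested genes) were higher and 321 (2.21%) lower in MPS VII. Higher genes made up 73.7% of all calls and 79.3% of those with at least a 2-fold change, which were 482 higher (3.31%) and 126 lower (0.866%). The median log2 fold change was 1.05 among called genes that rose, -0.85 among those that fell, and 0.02 over all tested genes. In 1177 tested genes (8.09%) no library of one genotype lay within the range of the other, among them 634 called higher and 222 called lower. Genes near silence in 1 genotype were mostly so in controls: 31 genes averaged under 0.5 CPM in controls and at least 2 CPM in MPS VII, 30 of them called, against 4 genes in the reverse direction, all 4 called. Without MPS VII replicate 3 the former count was 19. Fitted on the day 9 libraries alone, 711 genes were called, 545 higher and 166 lower.

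**Figure D2:**
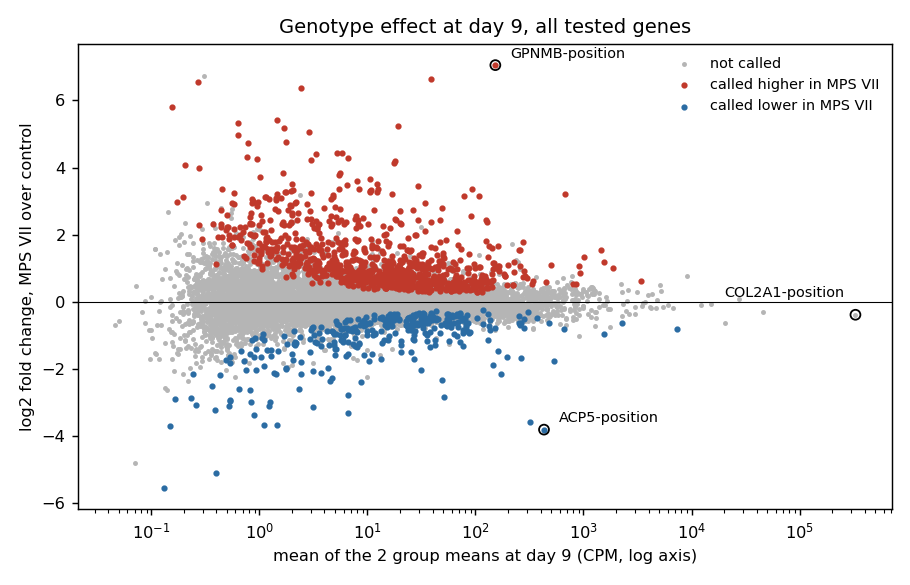
Each point is 1 tested gene, placed by the mean of the control and MPS VII group means at day 9 (CPM, log axis) and by its log2 fold change, MPS VII over control. Called genes are coloured by direction: 899 rose and 321 fell, and the largest rises reach 7.05 on the log2 scale.

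The largest rise was at chr14:36918913-36947518 (ENSCAFG00000002753), the position of GPNMB, which encodes a membrane glycoprotein of lysosomes and melanosomes that macrophages and osteoclasts also make. Control libraries held 3.0, 1.96, 1.59, 4.17 and 0.806 CPM and MPS VII libraries 281, 286, 424, 278 and 247 CPM. Every MPS VII library was far above every control, and the lowest of them exceeded the highest control many times over. The log2 fold change was 7.05 ± 0.42 (SE, adjusted p = 2.99e-09), and 6.90 without MPS VII replicate 3. In bulk tissue such a difference can come from more cells of a type or from more RNA of the gene per cell, and fewer cells of a type and less RNA per cell likewise cannot be told apart.

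The 14 named rises, with the GPNMB-position gene among them, were taken from called genes whose libraries do not overlap between genotypes. Their lack of overlap was thus set by that choice. Several of them were close to silent in controls. The 3-exon gene at chr11:58085495-58090683 had 0.0697, 0.0854, 0, 0.058 and 0.0896 CPM in controls and 3.09, 2.84, 2.77, 2.68 and 2.94 CPM in MPS VII, that is 7 counts over all controls against 327. Its log2 fold change was 5.42 ± 0.40, and the 5 MPS VII values lay within a narrow band. At chr17:54171816-54185647, controls held 0.767, 0.427, 0.969, 0 and 0.269 CPM and MPS VII libraries 8.08, 10.104, 9.96, 15.3 and 12.1 CPM, again with no overlap (4.43 ± 0.37, adjusted p = 9.55e-08). The gene at chr20:53342021-53385263 held 0 to 0.348 CPM in controls and 3.24 to 9.68 CPM in MPS VII, with 5.07 ± 0.47 on the log2 scale and 4.77 without MPS VII replicate 3. The gene at chr7:5720687-5752812 held 0 to 0.256 CPM in controls and 1.47 to 7.82 CPM in MPS VII, with 4.77 ± 0.63 and, without that library, 4.20. At chr11:67713589-67726155 only 6 counts were found over the 5 controls, against 555 over the MPS VII libraries, a log2 fold change of 6.37 ± 0.66 (5.88 without replicate 3).

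In other large rises 1 library held most of the counts. The gene at chr9:53425168-53472725 (ENSCAFG00000019945) had 0.558, 0.598, 0.969, 0.464 and 1.16 CPM in controls and 19.3, 14.9, 298, 20.1 and 28.7 CPM in MPS VII. All 5 MPS VII libraries were above all controls, but replicate 3 was about an order of magnitude above the rest of its group, and without it the log2 fold change went from 6.65 to 4.77 (adjusted p = 5.46e-05). At chr9:37734558-37740115 controls held 0.279, 0.341, 1.67, 1.97 and 0.896 CPM and MPS VII libraries 18.9, 8.02, 117, 15.4 and 26 CPM, a log2 fold change of 5.23, or 4.12 without replicate 3. At chr4:35008153-35018160 the MPS VII values were 6.35, 4.59, 138, 7.81 and 9.61 CPM against 0.44 to 2.55 CPM in controls, and the log2 fold change fell from 4.14 to 1.90 without replicate 3 while the call remained (adjusted p = 0.0073). That call missed the threshold when day 9 was fitted alone (adjusted p = 0.0529). At chr17:24901975-24960582 they were 4.4, 2.92, 40.7, 1.6 and 2.48 CPM against 0.528 to 0.854 CPM, and the change was 3.85 with and 1.98 without that library, with no call by limma with sample quality weights (adjusted p = 0.109). That every MPS VII library was above every control in these genes follows from the choice of named rises. Their log2 fold changes were smaller without replicate 3. The gene at chr14:59948143-59993427 depended on it further. Its MPS VII values were 0.999, 1.92, 44.6, 0.94 and 1.1 CPM against 0.348 to 0.616 CPM in controls, and its call (log2 fold change 4.43, adjusted p = 0.0187) ended without replicate 3 (1.43, adjusted p = 0.248) and also without control replicate 1 or 2 (adjusted p = 0.0551 and 0.0517), in the fit of day 9 alone (0.0819) and by limma (0.21). Of the 14, replicate 3 was the highest of all 10 libraries in 12 and over 2 times the next highest in 8, and 1 call was lost without it. The other named rises, at chr38:20979963-20994524 (log2 fold change 5.18, 4.01 without replicate 3) and chr3:86183098-86285748 (4.21 and 3.32), kept their calls without it. Without control replicate 1 these 2 changes were 5.98 and 4.89.

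Adjacent genes rose together at 7 places, on chromosomes 2, 9, 11, 12, 16, 18 and 20, of which those on chromosomes 2, 9, 12 and 16 are immune gene loci. A run is here a row of 3 or more tested neighbours that share the direction of their call and each change 2-fold or more, and the 7 runs held 25 genes, all higher in MPS VII. Neighbouring genes of a family can be near-identical copies that share reads, so the values of single members are less certain than those of the locus. Leaving out MPS VII replicate 3, or control replicate 2, 3 or 5, left 4 runs. The windows around these loci were defined with earlier results of these data known, and the C1q window after its values were seen. Shares called within them are therefore not read as an excess over the background.

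At the C1q locus on chromosome 2, whose genes encode the chains of the first complement component and are made mainly by macrophages, 3 of 3 tested genes rose, against a background of 6.18% called higher. At chr2:76649363-76655660 controls held 5.72, 4.27, 4.49, 4.99 and 3.4 CPM and MPS VII libraries 13.5, 14.9, 31.3, 15.3 and 8.92 CPM. At chr2:76659987-76664962 they held 7.95, 6.66, 5.2, 7.42 and 5.37 and 18.2, 18, 37.9, 26.3 and 14.71 CPM, and at chr2:76667676-76670143 6.49, 5.46, 5.55, 5.68 and 6.18 and 20.8, 17.1, 34.5, 29.7 and 16 CPM. No MPS VII library of the 3 genes came down to the controls, and replicate 3 was the highest in each. The log2 fold changes were 1.87 ± 0.32, 1.82 ± 0.25 and 2.01 ± 0.28 (SE), and 1.52, 1.56 and 1.82 without replicate 3, with all 3 calls kept. Summed over the locus, the level was 14.96 to 20.2 CPM in controls and 39.6 to 104 CPM in MPS VII, or up to 71.3 CPM without replicate 3.

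The TREM locus on chromosome 12 holds receptors of the immunoglobulin superfamily that myeloid cells use to sense lipids and cell debris. Of 8 tested genes in its window, 4 adjacent ones rose (50%, against 6.18% of all tested genes), and 0 were lower by edgeR, DESeq2, limma or at an unadjusted p under 0.05. The gene at chr12:9923301-9928223 held 0.872, 0.427, 0.528, 0.812 and 0.537 CPM in controls and 12.7, 12.4, 14.6, 11.9 and 10.7 CPM in MPS VII, an even rise with no overlap (4.28 ± 0.30 on the log2 scale, adjusted p = 6.92e-09). Its neighbour at chr12:9914891-9920655 held 0.628, 0.512, 0.352, 0.928 and 0.358 CPM in controls and 2.45, 4.59, 4.11, 3.1 and 2.94 CPM in MPS VII (2.64 ± 0.35). At chr12:9990388-10000216 controls held 0.0896 to 0.58 CPM and MPS VII libraries 0.643 to 2.61 CPM (2.60 ± 0.49). The fourth, at chr12:9934948-9947254, overlapped between genotypes (1.07 to 4.17 against 3.99 to 7.74 CPM). Its log2 fold change of 1.04 ± 0.29 (adjusted p = 0.0264) lost its call without MPS VII replicate 3 or 5 or control replicate 2, 3 or 5 (adjusted p between 0.0559 and 0.0738) and in the fit of day 9 alone (0.11). The other 4 genes of the window, which start at 9808273, 9822558, 9835285 and 9858317, had log2 fold changes of -1.60, 0.07, -0.07 and 0.34 and were not called.

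At the CD300-type locus on chromosome 9, whose receptors bind membrane lipids on myeloid cells, 4 of 6 tested genes rose, where 6.18% of all tested genes did. The gene at chr9:5858852-5862730 held 1.74, 1.37, 1.45, 1.57 and 1.48 CPM in controls and 8.08, 9.52, 7.15, 9.4 and 9.88 CPM in MPS VII, both groups being even (2.53 ± 0.20, adjusted p = 2.31e-08). At chr9:5889416-5897046 controls held 0.488, 0.171, 0.264, 0.696 and 0 CPM and MPS VII libraries 2.36, 4.26, 3.87, 5.08 and 2.67 CPM (3.50 ± 0.48). The genes at chr9:5906878-5913176 and chr9:5949375-5976435 rose by 2.06 ± 0.27 and 2.57 ± 0.33 on the log2 scale. Here replicate 3 did not lead: it was the lowest MPS VII library for the first of these genes, and all 4 calls remained without it. The flanking genes that start at 5830588 and 5984115 were not called (log2 fold changes 0.75 and -0.28).

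A further run of 5 genes lay on chromosome 11 between 67678600 and 67746324, in a window with 10 tested genes (50% called higher, background 6.18%), to which no name is attached here. It includes the near-silent gene starting at 67713589 described above. The window was drawn with earlier results of these data known, so its share called is not read as an excess. The single-exon gene at chr11:67729275-67730030 held 1.36, 1.41, 1.67, 1.74 and 1.61 CPM in controls and 8.12, 5.26, 7.47, 9.26 and 8.73 CPM in MPS VII (2.32 ± 0.31), and the gene at chr11:67741492-67746324 held 5.65, 5.85, 5.9, 4.06 and 5.46 and 14.8, 11.1, 18.5, 19.9 and 18.3 CPM (1.61 ± 0.20). Both were higher in every MPS VII library. The lower-abundance members starting at 67678600 and 67686214 rose by 2.16 ± 0.53 and 2.73 ± 0.63 from means of 0.217 ± 0.208 and 0.109 ± 0.0879 CPM (SD, n = 5). The 5 genes outside the run in this window had log2 fold changes of -0.37 to 0.30, none of them called, and the gene starting at 67678600 rose by 2.85 without control replicate 4.

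At the GIMAP-type locus on chromosome 16, whose GTPases are best known from lymphocytes, 4 of 8 tested genes rose from low levels, beside 6.18% of all tested genes, and 2 of these calls were lost under some alternatives. The gene at chr16:14889358-14896569 held 0.488, 0.171, 0.264, 0.464 and 0.269 CPM in controls and 1.68, 1.29, 3.24, 1.13 and 1.47 CPM in MPS VII (2.398 ± 0.41, adjusted p = 0.000412, and 2.06 without MPS VII replicate 3), and the one at chr16:14828921-14833411 held 1.33, 0.427, 0.352, 0.812 and 0.358 and 1.72, 1.67, 3.24, 3.1 and 2.76 CPM (1.91 ± 0.38). Neither overlapped between genotypes. The gene at chr16:14818602-14820157 (1.92, adjusted p = 0.0202) was not called without control replicate 2 (adjusted p = 0.0614) or with day 9 fitted alone (0.0898), and rose by 2.56 without control replicate 1. At chr16:14846997-14852147 (1.16, adjusted p = 0.044) the call ended without control replicate 2, 3, 4 or 5 or MPS VII replicate 1, 3 or 5 (adjusted p 0.0739 to 0.112). It also ended with day 9 fitted alone, counts halved, no filter, or limma (0.156, 0.0562, 0.0641 and 0.0601).

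The C-type lectin window on chromosome 27 is named for receptors of natural killer and myeloid cells, and its genes were not checked against RefSeq. It held 10 tested genes, of which 3 rose (30%, against a background of 6.18%). In order of position these have 36, 5 and 7 exons, and whether they encode lectin receptors was not established. They lie next to each other near its far end but are no run, since the change of the third was under 2-fold. At chr27:36654072-36696052 controls held 9.07, 9.31, 16, 13.3 and 7.43 CPM and MPS VII libraries 27.6, 37, 68.5, 58 and 26.7 CPM (1.99 ± 0.29, 1.76 without replicate 3). At chr27:36740984-36766777 the values were 1.05, 0.427, 1.32, 0.812 and 0.537 CPM and 3.13, 3.97, 8.53, 4.61 and 3.03 CPM (2.48 ± 0.32, 2.13 without replicate 3). The gene at chr27:36786981-36796231 rose more evenly, from 48.1, 48.3, 55, 47.9 and 44.8 CPM to 83.5, 82.6, 69.3, 88.5 and 74.9 CPM (0.71 ± 0.08, adjusted p = 8.16e-06). The other 7 genes had log2 fold changes between -0.65 and 0.94.

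**Figure D3:**
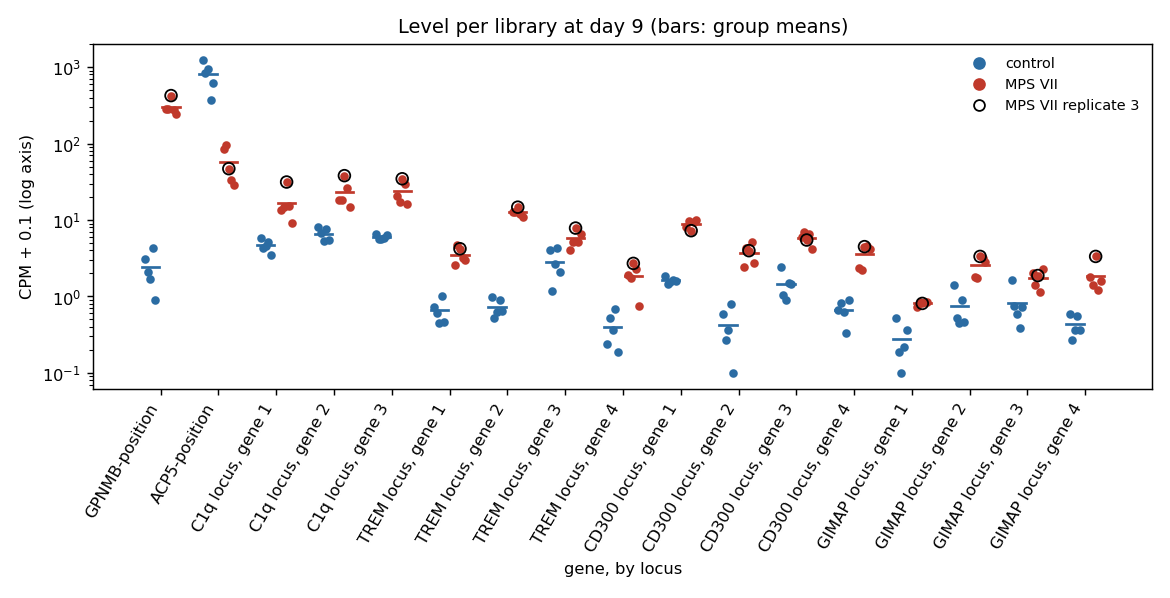
Points are the CPM plus 0.1 (log axis) of each day 9 library for the GPNMB-position and ACP5-position genes and the called genes of the C1q, TREM, CD300 and GIMAP loci in order of position, with group means as bars and MPS VII replicate 3 circled. In the GPNMB-position gene MPS VII libraries hold 247 to 424 CPM against 0.806 to 4.17 CPM, and the ACP5-position gene is the only one plotted that is lower in MPS VII.

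In the MHC (DLA) region of chromosome 12, which holds the antigen-presenting genes, 9 of 101 tested genes rose (8.91%, against a background of 6.18%) and 11 rose without MPS VII replicate 3. By edgeR and DESeq2 0 fell, where limma called 1 and 9 were lower at an unadjusted p under 0.05. The gene at chr12:2151409-2164562 held 36.1, 22.7, 29.4, 36 and 21.8 CPM in controls and 64.8, 63.6, 40.1, 78.8 and 81.6 CPM in MPS VII (1.17 ± 0.24), and the gene at chr12:2516976-2520999 6.84, 5.38, 4.36, 5.1 and 4.61 and 11.3, 13.2, 7.66, 16.9 and 11.5 CPM (1.20 ± 0.27). In both, replicate 3 was the lowest MPS VII library, and the log2 fold changes without it were 1.30 and 1.32. In the TLR-type cluster on chromosome 3, 0 of 3 genes were called by edgeR, DESeq2 or limma and 1 had an unadjusted p under 0.05, with log2 fold changes of -0.07 to 0.53. The gene that starts at 73542252 passed the threshold without control replicate 4 (0.69, adjusted p = 0.0373).

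The serum amyloid A-type window on chromosome 21 is named for acute-phase proteins, and its genes were not checked against RefSeq. Its 4 tested genes have 4, 7, 4 and 24 exons in order of position. Whether all of them encode such proteins was not established for this window. In it 1 of 4 tested genes was called (25%, with 6.18% of all genes called higher), at chr21:40627471-40634004, with 0.418, 0.896, 0.969, 0.58 and 0.627 CPM in controls and 0.999, 0.668, 13, 0.846 and 3.22 CPM in MPS VII. Replicates 3 and 5 were high and the rest of the group lay close to or within the control range. The call (2.43, adjusted p = 0.021) ended without replicate 3 (1.03, adjusted p = 0.19) and without control replicate 1 or 5 (adjusted p = 0.0618 and 0.0502), with day 9 fitted alone (0.131) and by limma (0.288). At chr21:40680858-40685074 the MPS VII values were 2.0, 1.04, 15.3, 1.22 and 2.11 CPM against 0.851 to 1.86 CPM in controls. That gene was not called (1.89, adjusted p = 0.0674), and its log2 fold change fell to 0.44 without replicate 3 (adjusted p = 0.648). It passed the threshold by DESeq2 (adjusted p = 0.0197) and, with replicate 3 kept, without MPS VII replicate 1, 2 or 4 (0.0482, 0.0275 and 0.0355). For the other 2 genes, starting at 40663392 and 40723033, the log2 fold changes were 1.41 and 0.16 with and -0.38 and -0.02 without replicate 3, and neither was called.

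The run on chromosome 18 held 3 single-exon genes within 0.847 kb, from 51767750 to 51768596, which need not be separate changes. The middle one, at chr18:51768109-51768263, held 38.9, 33, 31.6, 35.9 and 46.44 CPM in controls and 84.6, 75.2, 219, 58.4 and 119 CPM in MPS VII, again highest in replicate 3. Its log2 fold change was 1.58 ± 0.31, and 1.18 without that library (adjusted p = 0.00709). The outer 2, with 1.51 and 1.51, lost their calls without replicate 3 (1.19 and 1.09, adjusted p = 0.0823 and 0.0689). In the run on chromosome 20, between 53679092 and 53717782, the gene at chr20:53697772-53702348 held 0.349, 0.341, 0.352, 0.232 and 0.537 CPM in controls and 3.9, 2.92, 4.58, 4.14 and 3.03 CPM in MPS VII (3.33 ± 0.40), with no overlap. The genes on its sides, starting at 53679092 and 53709785, had log2 fold changes of 1.87 and 1.18. Both lost their calls without MPS VII replicate 3 (1.12 and 0.95, adjusted p = 0.196 and 0.0767) and without control replicate 2, 3 or 5, and the first also without control replicate 4 (adjusted p 0.0556 to 0.086 over these). The first was not called by limma (0.209), nor the second with day 9 fitted alone (0.131).

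Among called genes whose libraries did not overlap and with at least 2 CPM in controls, the largest fall was at chr20:49813686-49817040 (ENSCAFG00000017319), the position of ACP5, which encodes tartrate-resistant acid phosphatase, the enzyme by which osteoclasts are usually stained. Controls held 1251, 839, 943, 375 and 613 CPM and MPS VII libraries 84, 94.5, 46.8, 33.4 and 28.3 CPM. Controls ranged more than 3-fold among themselves, yet the lowest control was well above the highest MPS VII library. The log2 fold change was -3.81 ± 0.39 (adjusted p = 1.61e-06), and -3.74 without replicate 3. The GPNMB-position gene, whose product osteoclasts also make, was higher in the same 5 libraries.

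The 13-exon gene at chr24:33273918-33281411 had a like order of libraries, with 1016, 582, 688, 214 and 461 CPM in controls and 65.1, 97.4, 36.3, 29.4 and 21.2 CPM in MPS VII (-3.57 ± 0.53, adjusted p = 0.000148). Control replicate 1 was highest and control replicate 4 lowest in both genes, and within MPS VII replicates 1 and 2 were above the other 3. Further falls came from lower levels. At chr5:28978383-28986863 controls held 22.2, 12.4, 14.5, 4.52 and 6.99 CPM and MPS VII libraries 0.908, 2.17, 2.53, 0.094 and 0.276 CPM (-3.31 ± 0.52). At chr13:42897655-42957706 the controls were even, with 5.75, 6.49, 5.2, 5.45 and 5.55 CPM against 0.908, 1.42, 0.316, 0.188 and 0.368 CPM (-3.13 ± 0.44). At chr29:32336302-32380452 they held 14.8, 10.5, 15.81, 6.61 and 9.58 CPM against 1.82, 2.17, 2.53, 1.13 and 0.643 CPM (-2.78 ± 0.37). Named falls were taken from called genes without overlap between genotypes, so none of these could overlap.

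The other named falls were at chr27:41108016-41217919 (ENSCAFG00000015404, -3.68 ± 0.43), chr24:33797121-33799731 (-3.67 ± 0.60), chr14:13542668-13614146 (-3.09 ± 0.48) and on the unplaced scaffold AAEX03023386.1 from 3908 to 7947 (-3.0 ± 0.73), each with control means of 2.04 ± 1.38 to 2.73 ± 1.28 CPM (SD, n = 5). Control replicate 4 was the lowest control in 8 of the 10 named falls. The gene at chr2:42285483-42366320 differed in kind: controls held 31.8, 29.5, 31.4, 218 and 139.5 CPM, with replicates 4 and 5 high, and MPS VII libraries 17.5, 16.7, 2.29, 13.7 and 13.1 CPM, with replicate 3 low. Its log2 fold change of -2.83 ± 0.75 (adjusted p = 0.0225) lost its call without MPS VII replicate 3 (adjusted p = 0.083) or control replicate 4 (-2.20, adjusted p = 0.0754) or 5 (adjusted p = 0.0518), and with no filter (0.0547) or by limma (0.23). It was the only 1 of the 10 to do so without MPS VII replicate 3.

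The bone matrix phosphoprotein cluster on chromosome 32 encodes secreted acidic phosphoproteins of mineralised tissue. At day 9, 1 of its 3 tested genes fell (33.3%, against 2.21% of all tested genes), at chr32:11189932-11200350, from 417, 322, 334, 232 and 181 CPM to 135, 102, 88.5, 97.7 and 55.7 CPM (-1.63 ± 0.31, adjusted p = 0.00137). The gene at chr32:11354096-11362391, with 1083, 618, 918, 416 and 579 CPM in controls and 816, 964, 948, 488 and 1001 CPM in MPS VII, was not called (0.22 ± 0.27). At chr32:11051535-11052842 the 2 groups overlapped, apart from replicate 3 at 59.98 CPM, where the other MPS VII libraries held 1.52 to 8.67 CPM and controls 3.67 to 8.89 CPM. Without it the log2 fold change there went from 1.39 to -0.44, neither of them called. This library thus held less of the COL2A1-position transcript and more of this one than any other day 9 library.

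Among abundant genes, the COL2A1-position gene itself was not called (-0.39 ± 0.38, adjusted p = 0.576). The 6 called genes with the highest mean CPM were split evenly by direction. The most abundant of them, at chr3:23999219-24078497, fell from 9784, 9972, 9749, 9171 and 7629 CPM to 5421, 7497, 2797, 6303 and 4496 CPM (-0.80 ± 0.22, adjusted p = 0.0261). All controls were above all MPS VII libraries, but the call ended without control replicate 1, 2 or 3 or MPS VII replicate 5 (adjusted p 0.0577 to 0.0647) and with day 9 fitted alone (0.109). At chr36:25884497-25907339 controls held 1858, 1997, 2087, 2317 and 1929 CPM and MPS VII libraries 961, 1401, 304, 1291 and 1259.8 CPM (-0.97 ± 0.26), with replicate 3 lowest. That call stood without replicate 3 (-0.73, adjusted p = 0.00173) and missed the threshold without control replicate 4 (adjusted p = 0.0506) or with day 9 fitted alone (0.129). At chr2:83551661-83581563 the level fell from 2765 ± 481 to 1791 ± 219 CPM (SD, n = 5 each, log2 fold change -0.63), and the call ended without control replicate 2 or 3 or MPS VII replicate 1 or 4 (adjusted p 0.051 to 0.0895), or with day 9 fitted alone (0.0633).

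The 3 abundant genes that rose were those at chr2:70225456-70234420, chr25:47970980-48052402, and chr38:198591-213796. The first held 1128, 1328, 1322, 1286 and 1173 CPM in controls and 2446, 2535, 2225, 3729 and 1579.8 CPM in MPS VII (1.00 ± 0.28), without overlap, and its call ended without control replicate 1 or 5 or MPS VII replicate 4 (adjusted p 0.0552 to 0.0707) and by limma (0.0646). The second, a gene of 50 exons, held 544, 665, 925, 1661 and 983 CPM in controls and 2203, 1182, 2183, 2371 and 2862 CPM in MPS VII (1.18 ± 0.30, adjusted p = 0.0141), with the groups overlapping between 1 control and 1 MPS VII library. Its call ended with day 9 fitted alone and MPS VII replicate 3 left out (adjusted p = 0.0991). The third rose from 2662 ± 419 to 4125 ± 918 CPM (0.63), and its call ended on leaving out any of 6 libraries, namely control replicates 1, 2, 3 and 5 and MPS VII replicates 4 and 5 (adjusted p 0.0595 to 0.121), with no filter (0.0524) and with day 9 fitted alone (0.108).

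Over all called genes, 911 of 1220 kept their call in the same direction without MPS VII replicate 3, 672 of 899 that rose and 239 of 321 that fell. None was called in the opposite direction, 309 were no longer called, and 142 genes were called only without it. Among those with at least a 2-fold change, 387 of 482 higher and 110 of 126 lower genes kept their call. In all, 1053 of 14684 genes (7.17%) passed without this library, 746 higher (5.08%) and 307 lower (2.09%). The genes that kept their call and those that lost it were also counted at day 14, and the difference between the 2 sets was not tested. Day 14 shared no library with day 9, but both ages shared 1 fit and its estimate of spread, which includes replicate 3. Kept genes also had larger day 9 changes, so a higher share at day 14 among them was favoured in advance. Of the kept genes 68.5% of the higher and 63.6% of the lower ones were called the same way at day 14, against 32.6% and 40.24% of those that lost their call. The background at day 14 was 11.3% called higher and 10.7% lower. The median log2 fold change of the higher genes that lost their call was 0.83 with, 0.52 without replicate 3 and 0.41 at day 14, against 1.12, 1.01 and 0.85 for those that kept it. For the lower genes these medians were -0.60, -0.50 and -0.39 against -0.97, -0.88 and -0.79.

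**Figure D4:**
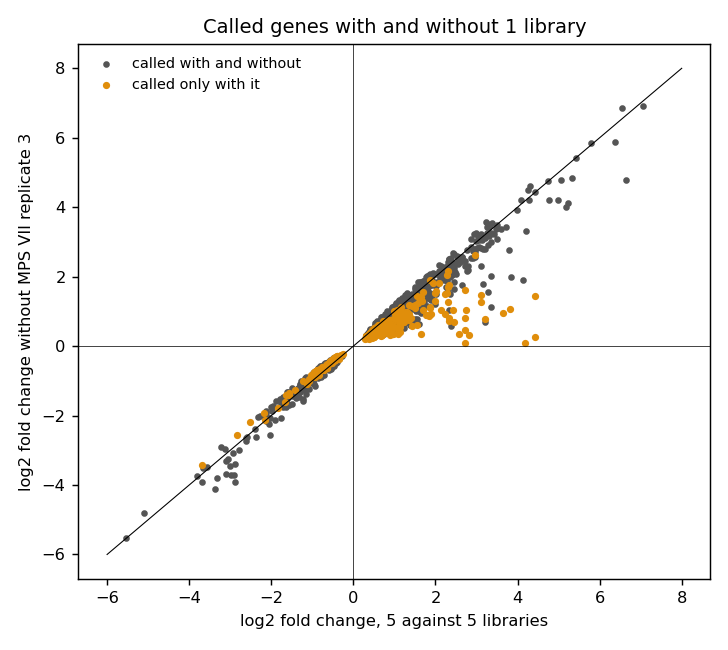
Each point is a gene called at day 9, placed by its log2 fold change with all 5 MPS VII libraries (x) and without MPS VII replicate 3 (y), with the line of equality. The 309 genes called only with that library (orange) lie mostly nearer to 0 on the y axis, and the 911 called both ways lie near the line.

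The genotype effect at day 9 was set beside that at day 14, where 22.0% of tested genes were called. Of the 14 named rises 12 were called higher, and of the 10 named falls 9 were called lower at day 14. The difference between ages was tested by an interaction contrast in the same edgeR fit, which called 474 genes (3.26% of all tested). Among the genes called at day 9 it called 72 of 899 that rose and 28 of 321 that fell. The log2 fold change was lower at day 14 in 58 of the 72 and higher in 8 of the 28. These genes were chosen by their day 9 effect, which the interaction also uses, so a smaller effect at day 14 was favoured in advance. The GPNMB-position gene averaged 9.24 ± 4.91 CPM in controls and 815 ± 201 CPM in MPS VII at day 14 (SD, n = 5 each), and its log2 fold change was 6.46 ± 0.40. Its difference from day 9, -0.59 ± 0.48, did not pass the test (adjusted p = 0.549). For the ACP5-position gene the change was -5.32 ± 0.42 at day 14, a difference of -1.51 ± 0.50 that did not pass the test (adjusted p = 0.0967).

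The genotype effect on the chromosome 32 cluster differed between ages. All 3 genes were lower in MPS VII at day 14 (-5.39, -4.64 and -2.25 in order of position) and their interactions passed the test (-6.77, -3.01 and -2.47, adjusted p = 0.00402, 0.00105 and 0.00169). Without MPS VII replicate 3 of day 9 the first of these differences was -4.94 (adjusted p = 0.00405), and by limma with sample quality weights it was -4.80. In controls the middle gene averaged 297 ± 92.1 CPM at day 9 and 3055 ± 1244 CPM at day 14, and in MPS VII 95.8 ± 28.5 and 122 ± 47.4 CPM (SD, n = 5 each). The fall at chr29:32336302-32380452 was deeper at day 14 (-5.68 ± 0.40, difference -2.90, adjusted p = 0.00663), a difference that limma did not call (adjusted p = 0.0726). For the abundant gene at chr2:70225456-70234420 the log2 fold change was larger at day 14 (3.02 ± 0.29, difference 2.02, adjusted p = 0.00763). Its level was lower at day 14 in both genotypes. Controls averaged 1247 ± 91.3 CPM at day 9 and 192 ± 66.3 CPM at day 14, and MPS VII 2503 ± 781 and 1557 ± 682 CPM (SD, n = 5 each).

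Some genes showed the reverse, with a higher log2 fold change at day 9 than at day 14. For the CD300-type gene starting at 5858852 the log2 fold change was 1.24 at day 14 (difference -1.28, adjusted p = 0.00966), and its control mean was 9.77 ± 1.4 CPM, against 1.52 ± 0.143 CPM at day 9 (SD, n = 5 each). Differences near the threshold were found for the C1q gene starting at 76649363 (-1.67, adjusted p = 0.0399), the named rise starting at 86183098 (-3.11, adjusted p = 0.0246) and the chromosome 20 gene starting at 53709785 (-1.70, adjusted p = 0.0409). The first ended without control replicate 2, 3, 4 or 5 (adjusted p 0.064 to 0.0804), with no filter (0.0569) and by limma (0.0615), the second without control replicate 2 or 5 (adjusted p = 0.0532 and 0.0503), and the third without control replicate 2, 3, 4 or 5 or MPS VII replicate 1 (adjusted p 0.0509 to 0.0808). For the gene starting at 86183098 the difference was -2.22 without MPS VII replicate 3 (adjusted p = 0.0146) and -3.79 without control replicate 1. The gene starting at 53709785 had a day 14 log2 fold change of -0.52, which was not called (adjusted p = 0.261). Of the 8 GIMAP-type genes 0 were called at day 14 by edgeR and 2 were higher at an unadjusted p under 0.05, but no interaction there passed the test. The gene starting at 14828921 averaged 2.9 ± 1.18 CPM in day 14 controls against 0.655 ± 0.42 CPM at day 9 (SD, n = 5 each).

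**Figure D5:**
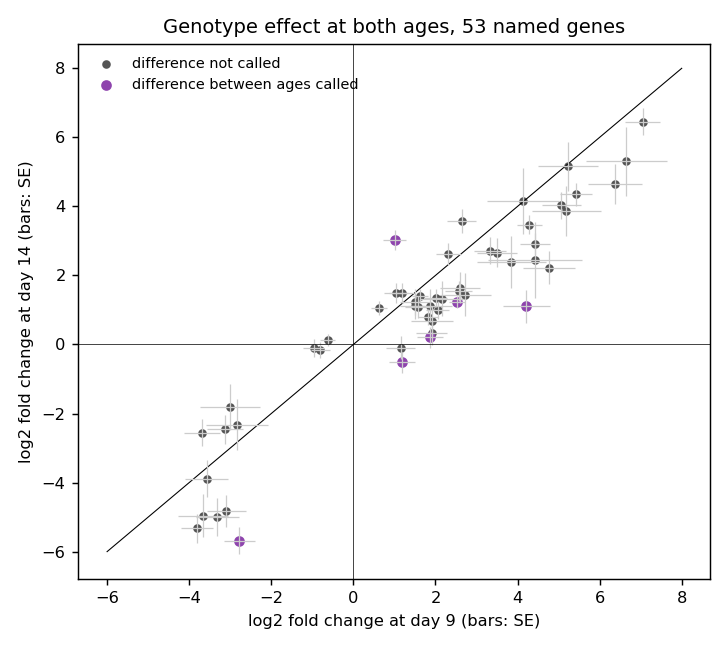
Points are the 53 named genes by their log2 fold change, MPS VII over control, at day 9 (x) and day 14 (y) with standard errors as bars and the line of equality. Purple points are the 6 genes whose difference between ages passed the test, and the GPNMB-position gene lies at the top right with 7.05 and 6.46.

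Groups of genes set by chromosome, level or length are given by their counts. Of the 17 tested mitochondrial genes edgeR called 0 at day 9 (median log2 fold change -0.15), DESeq2 called 1 lower, and 1 was lower at an unadjusted p under 0.05. In the HOXA-type cluster on chromosome 14, which encodes transcription factors of body-axis position, 1 of 8 genes was called higher (12.5%, against 6.18% of all tested genes). That gene, at chr14:40329127-40330842 (1.04, adjusted p = 0.0335), lost its call without control replicate 1, 2 or 5 or MPS VII replicate 1 or 3 (adjusted p 0.0555 to 0.0966). At day 14 edgeR called 4 of these 8 genes higher, where 11.3% of all tested genes were. No interaction in the HOXA-type cluster passed the test. In the IGF2 and H19 region on chromosome 18, an imprinted growth locus, 0 of 8 genes were called by edgeR, DESeq2 or limma or had an unadjusted p under 0.05, with log2 fold changes of -0.73 to 0.04. At day 14, 5 of the 8 rose, beside 11.3% of all tested genes. These include single-exon genes of 71, 95 and 69 bases between 46206173 and 46207250, which need not be separate changes. The interaction passed the test in 1 of the 8, the last of these single-exon genes, at chr18:46207182-46207250 (1.51, adjusted p = 0.0331). Its log2 fold changes were -0.09 at day 9 and 1.42 at day 14. It did not pass without control replicate 2, 3, 4 or 5 (adjusted p 0.0519 to 0.0619) or with no filter (0.0548). Of 555 tested X-chromosomal genes 30 rose (5.41%) and 19 fell (3.42%), against 6.18% and 2.21% of all genes. The fallers were 12 without control replicate 4. Over 4 equal bins of mean level, 5.94% to 6.52% of genes rose and 1.84% to 2.80% fell. Over 4 bins of exon length the share that rose went from 4.62% in the shortest to 7.50% in the longest. Among chromosomes with at least 100 tested genes the share that rose ran from 2.82% on chromosome 37 to 9.05% on chromosome 4.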

How the data were processed

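Polyadenylated RNA was sequenced with a stranded kit in paired reads and mapped to CanFam3.1 with Ensembl gene models, per the labels' protocols. Tools listed in the submitters' processing notes, with no role or order, are STAR 2.4.0j, HTSeq, CASAVA 1.8.2, edgeR and bcl2fastq. How counting treated strand is not given in the sources used here. Overlapping and near-identical genes are therefore uncertain. The authors deposited raw counts per gene for 24580 genes in 20 libraries, per the file headers. Between 71.2% and 76.4% of low counts in the day 9 libraries were even, and a fit on halved counts was among the alternatives. Copies made by PCR are counted like separate molecules.

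From these counts, edgeR 4.0.16 in R 4.3.3 kept 14550 genes by filterByExpr (10030 dropped, with 0.0413% of counts), scaled libraries by TMM, and fitted 1 mean per group over the 20 libraries with robust quasi-likelihood. The Benjamini-Hochberg adjusted p, taken across every tested gene, had to be under 0.05. CPM come from edgeR's cpm function on TMM-scaled library sizes. Library measures were compared by exact two-sided permutation tests, for which the smallest p of 5 against 5 is 0.00794. On simulated counts for the day 9 comparison (14550 genes, 200 of them changed) the fit recovered 28.4%, 68.7% and 90.9% of changes of 1.5, 2 and 4 times, with 4 false calls. The simulation drew genes independently and held no library that departs in many genes at once, as MPS VII replicate 3 does. Its rates need not hold for these data. Alternatives were DESeq2 1.42.0, limma 3.58.1 (voom with sample quality weights), median-ratio scaling, no filter, the day 9 libraries alone and leaving out each library.

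Named genes were the 14 largest rises and 10 largest falls among called genes whose libraries do not overlap and whose higher group averages at least 2 CPM, the 6 most abundant called genes, and the genes in runs. These groups, the windows and the members were chosen with earlier results of these data known. Gene lists by symbol (cell types, lysosome, cartilage) were not tested, since identifiers are not paired with symbols. Replicates were numbered in accession order.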

Additional observations from a re-analysis of the deposited data

Results flagged for a closer look

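Among 138 sets of 5 values looked at (65 genes and 4 library measures, by genotype), 23 had 1 library far from the other 4. The rule flags about 1 in 20 sets by chance when values are unselected and independent. Many of these genes were chosen by their day 9 changes, to which an outlying library adds, and some are neighbours. The count is therefore not read as an excess over chance. In 20 of the 23 the library was MPS VII replicate 3, and the report gives the log2 fold changes of these genes with and without it. Genes are given by their start, as in the report. In the genes with large rises it held 424 CPM at 36918913 on chromosome 14 (rest of the group 247 to 286), 298 at 53425168 (14.9 to 28.7), 117 at 37734558 (8.02 to 26), 138 at 35008153 (4.59 to 9.61), 44.6 at 59948143 (0.94 to 1.92) and 40.7 at 24901975 (1.6 to 4.4). It also held 16.2 CPM at 86183098 (2.67 to 3.67), 10.5 at 20979963 (0.827 to 2.45) and 7.82 at 5720687 (1.47 to 2.81). In the serum amyloid A-type window it held 13 CPM at 40627471 (0.668 to 3.22), 5.57 at 40663392 (0.251 to 0.735), 15.3 at 40680858 (1.04 to 2.11) and 45.9 at 40723033 (25.6 to 29.1). At immune loci it held 31.3 CPM at the C1q gene starting at 76649363 (8.92 to 15.3) and 3.24 at the GIMAP-type gene starting at 14889358 (1.13 to 1.68). In the C-type lectin window it held 8.53 CPM at the gene starting at 36740984 (3.03 to 4.61). The last 4 were 59.98 CPM at 11051535 in the bone matrix phosphoprotein cluster (1.52 to 8.67), 71.7 at 51768480 on chromosome 18 (19 to 32.9), and 3.79 at 53709785 (1.75 to 2.18) and 2.13 at 53679092 (0.184 to 0.668) on chromosome 20.

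In controls, replicate 4 held 4.06 CPM at 67741492 on chromosome 11 (rest of the group 5.46 to 5.90) and 0.58 CPM at 67678600 (rest 0.0697 to 0.179). Control replicate 1 held 1.53 CPM at the GIMAP-type gene starting at 14846997 (rest 0.290 to 0.640).

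The genotype effect differed between day 14 and day 9 by the interaction test in 10 of 106 genes looked at, beside 3.26% of all tested genes. The 106 are the named genes, those of the locus windows other than the MHC, and the COL2A1-position gene. Many of them were chosen by their day 9 effect, which the interaction also uses, so the count is not read as an excess. The difference of log2 fold changes, day 14 minus day 9, was -6.77, -3.01 and -2.47 in the bone matrix phosphoprotein cluster (starts 11051535, 11189932 and 11354096), -2.90 at 32336302, 2.02 at 70225456 and 1.51 at 46207182 in the IGF2 and H19 region. The first was -4.94 without MPS VII replicate 3. At 86183098 it was -3.11, or -2.22 without MPS VII replicate 3. It was -1.70 at 53709785, -1.28 at the CD300-type gene starting at 5858852 and -1.67 at the C1q gene starting at 76649363.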

How the results depend on the processing

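No alternative reversed a named gene. Of 53 named genes, 36 kept their call under every alternative that could test them and 17 lost it under at least 1; 10 lost it when day 14 was left out of the fit, 9 without control replicate 2 and 8 without MPS VII replicate 3. When day 14 was left out of the fit, 711 genes were called, 545 higher and 166 lower, with 81 at least 2-fold lower and 4 runs. Why fewer genes were called was not tested. DESeq2 called 516 genes lower and 10 named genes with a difference between ages, against 321 and 6; the cause was not tested. Leaving out each day 9 library in turn gave 896 to 1448 called genes, 660 to 1019 higher, 223 to 429 lower, 358 to 553 at least 2-fold higher, 108 to 155 at least 2-fold lower, 4 to 9 runs and 3 to 9 named genes with a difference between ages. The 3 came without control replicate 2 or 5, and day 14 libraries were not left out singly. The difference in total counts (MPS VII minus control) was -2756210 to -1178160, and its exact two-sided permutation p was 0.0397 without control replicate 4. With the day 9 libraries alone and MPS VII replicate 3 left out, an alternative chosen after seeing the data, 1194 genes were called, 797 higher and 397 lower. No paired analysis was possible because the labels give no litter or shared replicate number. With 5 animals a group, the simulated recovery of changes of 1.5 times was 28.4%, so genes not called may still differ.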
